A study of Mus musculus with 7 samples.

Results

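Endothelial cells keep blood fluid by holding the start of clotting in check and by dissolving fibrin. Followed here were 9 genes of coagulation and fibrinolysis, some of which promote clotting and some of which oppose it: F3, F8, Tfpi, Thbd, Procr, F2r, Plat, Plau and Plaur. They were found by gene symbol among the probe sets of an expression array that carry exactly 1 symbol. Each of the 9 had 1 such probe set and each passed the filter on dim genes, so all 9 are among the 16637 genes tested. Cells came from lungs of E18.5 mouse embryos on a C57BL/6 background, either Sash1-/- embryos (labelled Sash1-knockout, 4 arrays) or their wild-type littermates (3 arrays), with no other allele or treatment named. Embryos had been genotyped by PCR, and the cells sorted as viable, CD31-positive, CD45-negative and CD326-negative. Neither the removed part of Sash1 nor whether each sample was its own embryo is stated, so p-values reflect only how far these samples spread, part of which may be technical.

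In the clotting cascade, tissue factor (F3) binds a circulating protease and starts thrombin formation, and factor VIII (F8) is the cofactor that speeds it. Tissue factor pathway inhibitor (Tfpi) blocks the start, while thrombomodulin (Thbd) and the endothelial protein C receptor (Procr) turn thrombin towards activating the anticoagulant protein C. Thrombin also signals to endothelium through its receptor PAR1 (F2r). Fibrin is removed by plasmin, which tissue plasminogen activator (Plat) and urokinase (Plau) release from plasminogen, urokinase acting at its cell-surface receptor (Plaur).

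Values are log2 signals, so a difference of 1 is a doubling. Array medians over all probe sets lay between 3.86 and 4.03. Pecam1, which encodes CD31, measured 11.12 ± 0.03 (SD, n = 3) and 11.12 ± 0.07 (SD, n = 4), and the mean of 10 pan-endothelial markers lay between 10.06 and 10.29 on every array. Sash1 did not separate the labels: it measured 8.33 on array wild-type 3, near the 8.13 to 8.29 of knockout 1, 2 and 4, and 8.68 on array knockout 3, near the 8.73 of wild-type 2. Arrays are therefore named by their labels, every direction rests on those labels, and each of the 9 genes is given with and without these 2 arrays. Whether these 2 samples carry the genotype of their label or were exchanged could not be settled from the files, and an exchange would change what every difference below compares. Sash1 measured 8.13 or higher on every knockout-labelled array, and whether its probe set lies in the removed part is unknown. Its signal may therefore not report genotype. With all arrays, 0 of 16637 genes (0%) passed a Benjamini-Hochberg adjusted p of 0.05 in limma, and 556 (3.34%) had an unadjusted p under 0.05.

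None of the 9 genes passed that test either, with adjusted p from 0.971 to 0.994 in limma and 0 of 9 at an unadjusted p under 0.05. The labels overlapped in all 9, where 2.45% of tested genes had no overlap. The difference, knockout minus wild-type, was below 0 in 8 of 9 members, with a median of -0.18, against 45.6% of all tested genes, with a median of 0.02. F8 was the exception. With median centring of the arrays Tfpi also lay above 0, which left 7 of 9 below. With array weights 9 of 9 lay below 0. With 1 array left out, 6 to 8 of 9 did, fewest without wild-type 2 or without knockout 1. F3, Plat, Plaur and Procr had their 3 highest values on the same arrays, so the 9 signs are not separate observations.

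**Figure D1:**
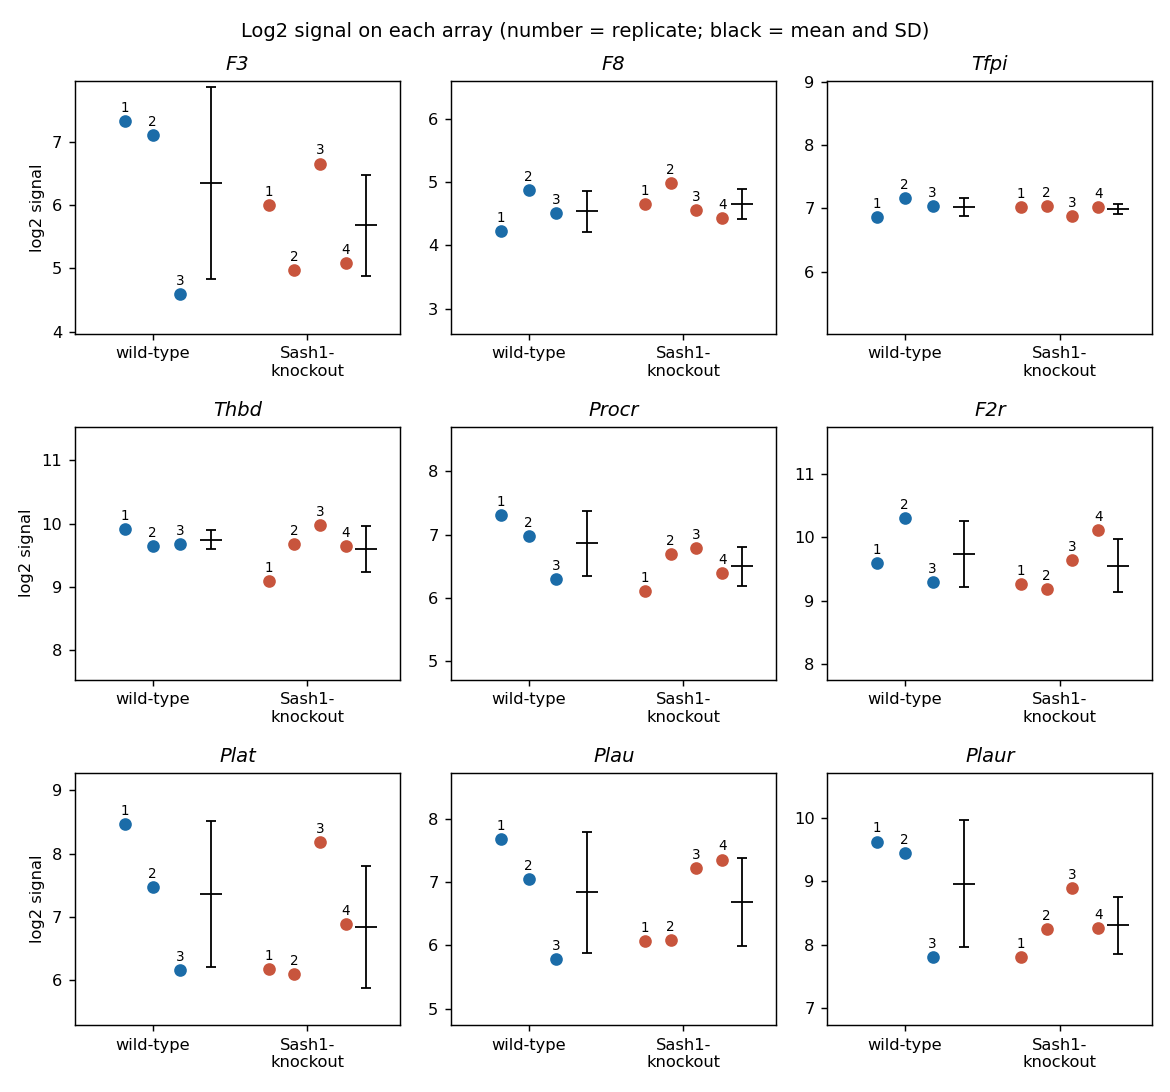
Log2 signal (vertical axis, the same span in each panel) of the 9 genes on each array, with wild-type-labelled arrays in blue, knockout-labelled arrays in red, the replicate number above each point, and the mean and SD of each label in black (n = 3 and n = 4). F3, Plat and Plaur are high on wild-type 1 and 2 and on knockout 3, Tfpi hardly varies, and the labels overlap in every panel.

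F3, F2r, Plaur and Procr had sequence before their start sites in the RefSeq promoter table (assembly GRCm38.p6), as did F8 and Tfpi, while Thbd, Plat and Plau were not matched, so 6 of 9 were. The 250 bases before the start of 3 members are shown because their values were high on the same arrays, with capitals on each match to the AP-1 motif TGANTCA, which reads the same on both strands. AP-1 is the dimer of Fos and Jun proteins, which immediate early genes encode.
F3 (chr3:121723287-121723536, plus strand): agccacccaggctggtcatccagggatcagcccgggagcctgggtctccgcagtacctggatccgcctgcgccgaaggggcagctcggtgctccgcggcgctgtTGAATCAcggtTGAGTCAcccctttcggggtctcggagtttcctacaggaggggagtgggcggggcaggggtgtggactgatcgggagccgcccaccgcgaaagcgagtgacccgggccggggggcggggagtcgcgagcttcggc
Plaur (chr7:24462233-24462482, plus strand): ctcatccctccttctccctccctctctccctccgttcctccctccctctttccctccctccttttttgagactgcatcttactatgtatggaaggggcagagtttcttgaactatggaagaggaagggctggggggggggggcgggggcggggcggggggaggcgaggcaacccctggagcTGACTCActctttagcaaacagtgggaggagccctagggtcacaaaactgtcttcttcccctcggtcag
Procr (chr2:155750967-155751216, plus strand): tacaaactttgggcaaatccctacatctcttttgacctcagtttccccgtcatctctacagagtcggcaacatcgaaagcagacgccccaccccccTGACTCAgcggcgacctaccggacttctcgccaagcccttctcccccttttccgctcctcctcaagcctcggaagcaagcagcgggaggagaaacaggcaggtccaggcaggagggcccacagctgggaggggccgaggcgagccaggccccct

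Counted back from the start, where the last base shown is -1, the matches began at -146 and -135 in F3, at -69 in Plaur and at -154 in Procr. F2r, whose highest arrays were wild-type 2 and knockout 4, also held 1 match, at -204, and F8 and both start sites of Tfpi held 0. A link between matches and the course over the arrays was not tested. Of all 32851 windows of this length in the table, 6.75% held a match. SP1's GGGCGG, searched on both strands, occurred 3 times in F3 and 3 times in Plaur and was not found in Procr, against 32.7% of all windows. The KLF motif CACCC occurred 3 times in F3, once in Procr and not in Plaur, against 52.0% of windows, and TATAAA, in 12.4% of windows, was in none of these 3. The looser NF-kB pattern, GGG and CC with any 5 bases between them on either strand and present in 45.8% of windows, matched 4 times in F3, 2 times in Plaur and 3 times in Procr, counting overlapping matches. Windows of the other members held these letters too: F2r had 2 KLF and 1 SP1 matches, F8 2 NF-kB matches, and the start sites of Tfpi 1 KLF and 1 SP1 match each, with 2 NF-kB matches at the site nearer the gene's end and 1 TATAAA at the other. These are letters in a window and no record of binding, which was not measured here.

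The initiator F3 varied most. It measured 7.33, 7.11 and 4.60 under the wild-type label (arrays 1, 2 and 3) and 6.00, 4.98, 6.66 and 5.09 under the knockout label (arrays 1 to 4). Array wild-type 3 was the lowest of all and array knockout 3 the highest of its label. F3's SD within labels, 1.14, was larger than that of 99.7% of tested genes. The mean difference of -0.66 (95% confidence interval -2.38 to 1.05, adjusted p = 0.971 in limma) spans from 19.2% to 207% of the wild-type-labelled level. Without wild-type 3 and knockout 3 it was -1.86 (-2.76 to -0.96), 27.5% of the level under the wild-type label, with an adjusted p of 0.273 in limma. Dropping wild-type 1, wild-type 2 or knockout 2 alone gave -0.17, -0.28 or -0.43, and dropping wild-type 3 alone gave -1.54.

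F8 and Tfpi, a cofactor and an inhibitor of the cascade, spanned 0.76 and 0.29 log2 units over the 7 arrays. F8 measured 4.22, 4.88 and 4.51 under the wild-type label and 4.66, 4.98, 4.56 and 4.43 under the knockout label, all above the filter at 2.98. Its difference was 0.12 (-0.33 to 0.57, adjusted p = 0.975 in limma), and 0.14 (-0.55 to 0.83) without wild-type 3 and knockout 3. The labels interleave along its range, and wild-type 1 was the lowest array. Tfpi measured 6.87, 7.16 and 7.03 against 7.02, 7.04, 6.88 and 7.02. Its SD within labels, 0.11, was smaller than that of most tested genes (15.8% had a smaller one), and its difference of -0.03 has an interval from -0.26 to 0.20, which bounds the level to between 83.5% and 115% of wild-type-labelled. Without wild-type 3 and knockout 3 the difference was 0.01 (-0.29 to 0.32). Tfpi gave the narrowest interval of the 9 genes.

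Thbd and Procr carry the protein C branch. Thbd, the thrombin-binding receptor, measured 9.92, 9.65 and 9.67 under the wild-type label and 9.09, 9.67, 9.97 and 9.65 under the knockout label. Array knockout 1 alone was low, and the other 6 lay between 9.65 and 9.97. The difference was -0.15 (-0.63 to 0.33, adjusted p = 0.972 in limma), 0.02 without array knockout 1, and -0.32 (-0.90 to 0.27) without wild-type 3 and knockout 3. Procr, which presents protein C to that complex, measured 7.31, 6.98 and 6.30 against 6.10, 6.70, 6.79 and 6.39. Arrays wild-type 1 and 2 were the highest and knockout 1 again the lowest, with wild-type 3 next to it. Its difference was -0.37 (-1.0 to 0.26, adjusted p = 0.971 in limma), or 77.5% of wild-type-labelled, and -0.75 (-1.31 to -0.18, adjusted p = 0.356) without wild-type 3 and knockout 3. Dropping wild-type 1 gave -0.15, dropping knockout 1 gave -0.24 and dropping wild-type 3 gave -0.65.

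The thrombin receptor gene F2r followed another order. It measured 9.59, 10.31 and 9.30 under the wild-type label and 9.27, 9.19, 9.64 and 10.11 under the knockout label. Array wild-type 2 was the highest, knockout 4 followed it, and the other 5 lay at 9.64 or below. The difference was -0.18 (-0.89 to 0.53, adjusted p = 0.980 in limma), 0.11 without wild-type 2, and -0.43 (-1.41 to 0.55) without wild-type 3 and knockout 3.

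The plasminogen activators and the urokinase receptor moved over wide ranges between arrays of the same label. Plat measured 8.46, 7.47 and 6.15 under the wild-type label and 6.17, 6.10, 8.18 and 6.89 under the knockout label. Array knockout 3 lay above wild-type 2, and wild-type 3 lay among the lowest. Its difference was -0.53 (-2.10 to 1.05, adjusted p = 0.972 in limma), 0.03 when wild-type 1 was dropped, -1.13 when wild-type 3 was, and -1.58 (-2.61 to -0.54, adjusted p = 0.319) without wild-type 3 and knockout 3. Plau measured 7.68, 7.05 and 5.79 against 6.07, 6.09, 7.23 and 7.36. Here knockout 4 was high as well as knockout 3, which sets Plau's order apart from that of Plat. Plau's difference was -0.15 (-1.39 to 1.08, adjusted p = 0.994 in limma), 0.27 without wild-type 1, and -0.86 (-2.11 to 0.39, adjusted p = 0.601) without wild-type 3 and knockout 3.

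Plaur, the urokinase receptor gene, had the smallest unadjusted p of the 9, at 0.199 in limma. It measured 9.63, 9.45 and 7.81 under the wild-type label and 7.81, 8.25, 8.90 and 8.26 under the knockout label. Arrays wild-type 1 and 2 lay above every knockout-labelled array, and wild-type 3 equalled the lowest of them. Its difference was -0.66 (-1.75 to 0.44, adjusted p = 0.971 in limma), or 63.4% of wild-type-labelled (29.6% to 135%). Dropping wild-type 1 or wild-type 2 gave -0.33 or -0.42, and dropping wild-type 3 gave -1.24. Without wild-type 3 and knockout 3 it was -1.43 (-1.90 to -0.97, unadjusted p = 0.000607 in limma), or 37.0% of wild-type-labelled (26.8% to 51.2%). It did not pass after adjustment (adjusted p = 0.244 in limma). Those 2 arrays were singled out from values of this dataset, so neither that interval nor that p is an independent test.

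**Figure D2:**
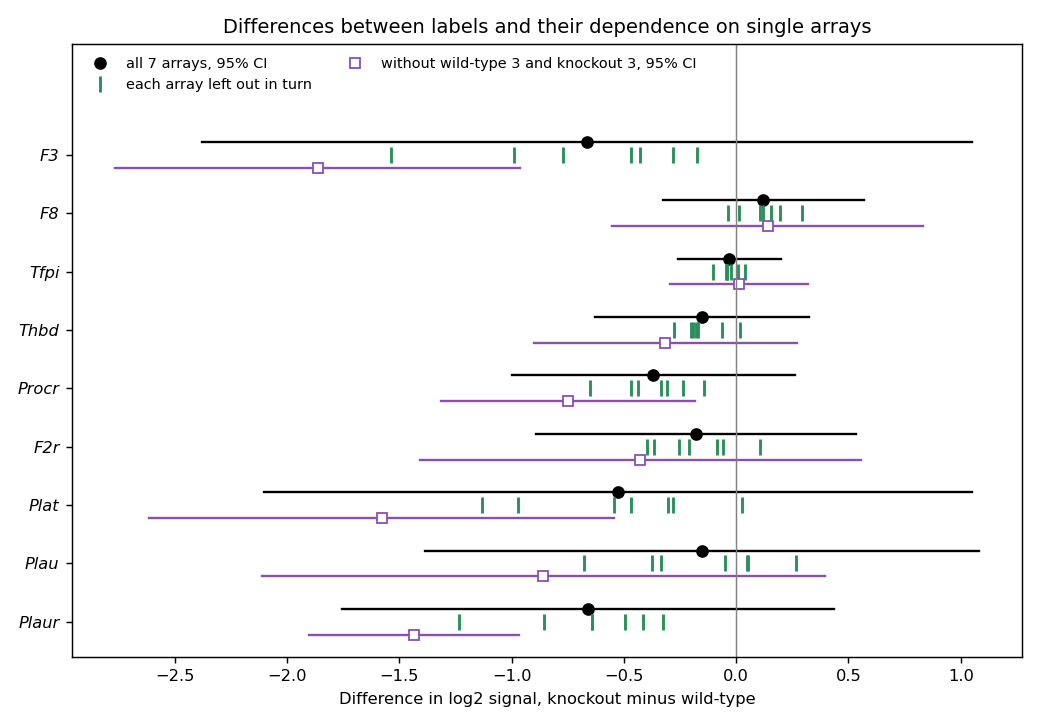
Difference in log2 signal, knockout minus wild-type (horizontal axis), for the 9 genes with all 7 arrays (black, 95% confidence interval), with each array left out in turn (green ticks, no interval) and without wild-type 3 and knockout 3 (purple, 95% confidence interval). All black intervals include 0, and the purple intervals of F3, Plat, Plaur and Procr lie below 0 before adjustment.

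Leaving out wild-type 3 and knockout 3 thus changed the picture for 4 genes, F3, Plat, Plaur and Procr, which alone among the 9 had an unadjusted p under 0.05 in limma and no overlap between the remaining labels. The background rose as well: 1779 of 16637 genes (10.7%) had an unadjusted p under 0.05, the remaining labels had no overlap in 24.0% of genes, and in 10.9% every remaining knockout-labelled value lay below both remaining wild-type-labelled ones. After adjustment 0 of 9 members and 0 of 16637 genes (0%) passed. In that comparison 7 of 9 members had differences below 0, with a median of -0.75, against 48.5% of all genes. These 2 arrays were singled out from values of this dataset, so this comparison is a description and no independent test.

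Across the 7 arrays, F3, Plat, Plaur and Procr had their 3 highest values on wild-type 1, wild-type 2 and knockout 3, an arrangement found in 965 of 16637 tested genes (5.80%). Any gene with it has no overlap once wild-type 3 and knockout 3 are left out, so the separation described above is the same fact. Sash1, whose values singled out those 2 arrays, had this arrangement too, at 8.68 to 9.02 on these 3 arrays and 8.13 to 8.33 on the rest. Within the arrangement the 4 member genes differed: F3 was 0.03 above its 7-array mean on knockout 1, where Plaur, Plat and Procr were 0.55 to 0.89 below theirs. The 14 immediate early and dissociation stress genes averaged 8.76, 8.53 and 7.28 under the wild-type label and 8.43, 7.19, 9.12 and 6.58 under the knockout label, with differences below 0 in 12 of 14 and 0 passing. They were thus high on the same 3 arrays and also on knockout 1. Both the highest of these means, 9.12 on knockout 3, and the lowest, 6.58 on knockout 4, were under the knockout label. The count of 12 was not recomputed without knockout 4 and shows no shift common to the knockout-labelled arrays. Fos measured 8.80, 8.62 and 5.86 against 7.72, 6.00, 9.10 and 4.39. On knockout 4, where the stress list was lowest, Plau and F2r were 0.61 and 0.48 above their 7-array means.

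**Figure D3:**
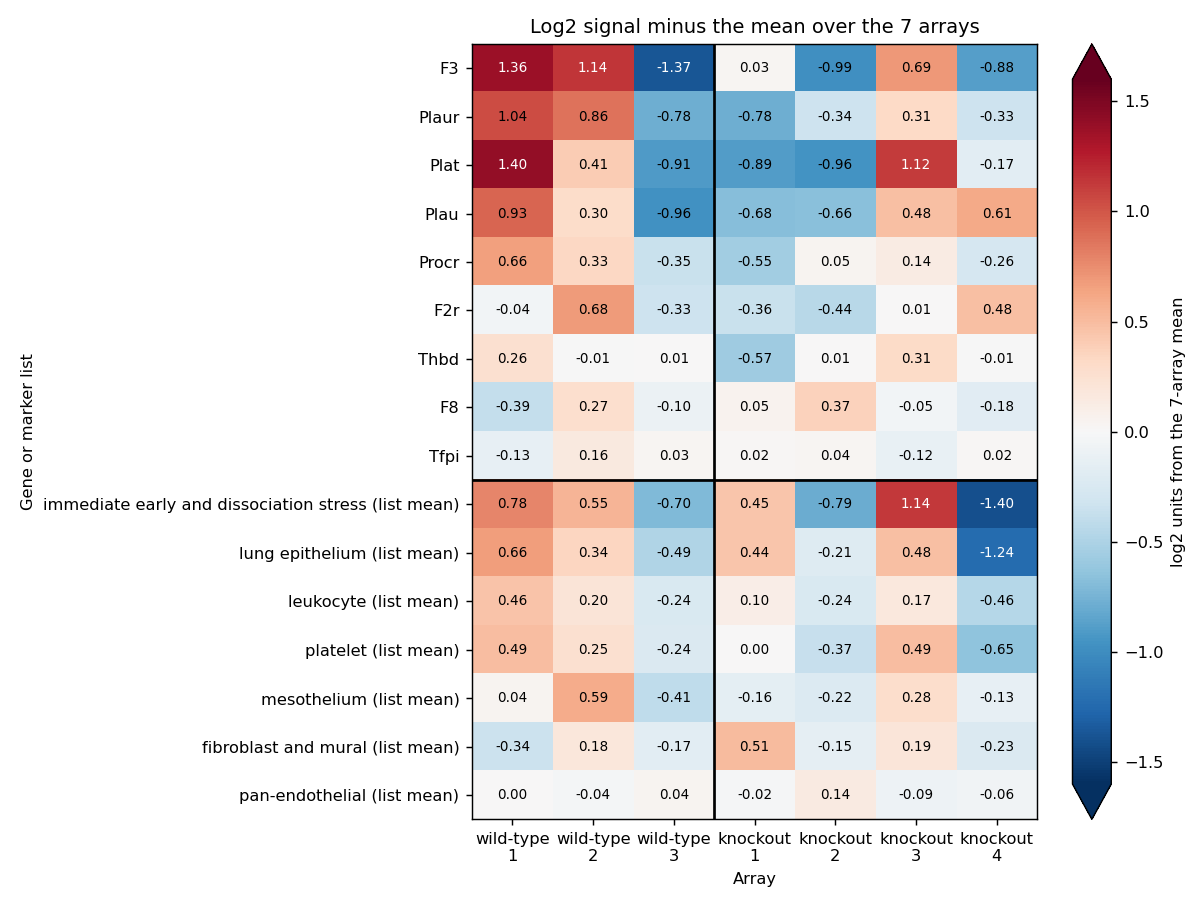
Log2 signal minus the 7-array mean (colour and number) for the 9 genes and for the means of 7 marker lists (rows) on each array (columns, wild-type-labelled left of the line). F3, Plaur, Plat and the stress list are above their means on wild-type 1, wild-type 2 and knockout 3, and the pan-endothelial list is near 0 on every array.

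Other cell types can carry these transcripts, and their markers were not level across arrays. In such bulk samples fewer cells of a type and less RNA per cell cannot be told apart. The lung epithelium list (12 genes, 9 lower and 3 higher by mean difference, 0 passing) averaged 7.47 to 8.62 under the wild-type label and 6.72 to 8.44 under the knockout label. The leukocyte list (12 genes, 10 lower) averaged 5.70 to 6.40 against 5.48 to 6.11, and the 6 platelet genes analysed (all 6 lower) 4.70 to 5.43 against 4.29 to 5.43. The mesothelium list (6 genes, 3 lower) averaged 5.07 to 6.07 against 5.26 to 5.76, and the fibroblast and mural list (10 genes, 1 lower) 6.74 to 7.26 against 6.85 to 7.59. Array knockout 4 stood apart in alveolar type 2 genes: the surfactant genes Sftpc, Sftpb and Sftpa1 measured 10.20, 6.13 and 4.70 there, with the lowest of the other arrays at 11.86, 8.64 and 7.78, and Lamp3, of lamellar bodies, 2.97 against 6.84 to 8.37. Lyz2, a lysozyme gene in the leukocyte list, was also lowest there, at 7.22 against 9.31 to 10.15, as were Ptprc, Cd68, Cd52 and Laptm5 of that list. Its Cd14, Csf1r, C1qa, C1qb, Itgam, S100a8 and S100a9 were lower on another array, and S100a8 and S100a9 measured 10.32 and 9.87 on knockout 4. Epcam, Cdh1 and Scgb1a1 of the epithelium list were lowest on knockout 4, while its Nkx2-1, Cldn18, Krt8, Krt18 and Ager were lower on wild-type 3. The stress genes Hspa1a and Hspa1b measured 4.32 and 4.37 on knockout 4, against at least 6.78 and 7.44 elsewhere. Without knockout 4 no member changed sign, and the differences of Plau, F2r and F8 were -0.38, -0.37 and 0.20. The epithelium mean of 6.72 was that of knockout 4, with the other knockout-labelled arrays at 7.75 to 8.44. Counts of lower genes in the lists were not recomputed without knockout 4. The stress, epithelium, leukocyte, platelet and mesothelium means were above their 7-array means on wild-type 1, wild-type 2 and knockout 3, as F3, Plat, Plaur and Procr were. The stress, epithelium and leukocyte means were above them on knockout 1 too, where Plat, Plaur and Procr were below theirs and the platelet mean lay at its 7-array mean. The part of these cell types and of the stress genes in the members' differences was not tested.

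For each member spanning at least 1 log2 unit, the 3 non-member genes with the most similar course over the 7 arrays were found by the root mean square difference of values centred on each gene's mean. For F3 these were Atp6v0a4, a proton pump subunit (0.15 log2 units), Ccn2, the matricellular connective tissue growth factor (0.15), and the chemokine gene Ccl3 (0.25). For Plat they were the protease gene Prss23 (0.20), Cd14 (0.22), which is also on the leukocyte list, and the receptor partner Ramp3 (0.23). Plaur ran closest to Pgf, placental growth factor (0.17), Ppp1r2 (0.17) and 1700017B05Rik (0.20), and Procr to B4galt5 (0.09), Vamp3 (0.10) and Tmem65 (0.10). Plau ran closest to Pdlim1 (0.23), Mmrn1, which encodes the factor V-binding protein multimerin (0.23), and Nrarp (0.27), and F2r to the endocytic adaptor gene Dab2 (0.12), Gm1673 (0.13) and Fam205a2 (0.14). A smaller value means a closer course, and with 7 arrays it is a description only.

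The rest of the pathway was read from a list of 48 genes, of which 42 were analysed and 30 passed the filter on dim genes. Of these 30, 12 had differences above and 18 below 0, with a median of -0.03, and 0 passed in either direction (0% of all genes) or had an unadjusted p under 0.05. Without wild-type 3 and knockout 3 these were 8 above and 22 below, with 0 passing and 5 at an unadjusted p under 0.05, among a background of 10.7%. Those 5 were Vwf, S100a10, F2rl3, Gas6 and Ptgis, at -0.35, -0.44, 0.62, -0.40 and -0.65. Proc, Plg and Serpinc1 were below the filter, and the 6 hepatocyte markers averaged 3.30 to 3.49. Vwf, which encodes the carrier of factor VIII, measured 7.97, 7.84 and 7.62 under the wild-type label and 7.51, 7.54, 8.07 and 7.61 under the knockout label, a difference of -0.13 (-0.51 to 0.26), and -0.35 (-0.60 to -0.11, adjusted p = 0.325 in limma) without wild-type 3 and knockout 3. Array knockout 3 was its highest and the other 3 knockout-labelled arrays lay below wild-type 3. Mcfd2 and Lman1, partners in the cargo receptor that exports factors V and VIII from the endoplasmic reticulum, differed by -0.09 (-0.30 to 0.13) and 0.13 (-0.07 to 0.33). F5 and F13a1 differed by 0.15 (-0.40 to 0.70) and -0.01 (-0.40 to 0.37), and Adamts13, the protease that trims von Willebrand factor, by 0.01 (-0.29 to 0.31).

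Among inhibitors, Pros1, which encodes the protein C cofactor protein S, was nearly level, at 8.01, 8.16 and 7.76 under the wild-type label and 8.01 on each of the 4 knockout arrays. Tfpi2 differed by -0.04 (-0.42 to 0.33). Hs3st1, whose enzyme makes antithrombin-binding heparan sulfate, measured 5.15, 4.88 and 4.34 against 4.99, 4.97, 5.66 and 4.97, a difference of 0.36 (-0.22 to 0.94) that became -0.04 without wild-type 3 and knockout 3. F2rl3, the thrombin receptor PAR4, measured 5.07, 5.07 and 5.30 against 5.71, 6.05, 5.06 and 5.30, a difference of 0.38 (-0.17 to 0.93) and thus opposite in sign to F2r. It was 0.62 (0.0028 to 1.23, adjusted p = 0.465 in limma) without wild-type 3 and knockout 3, and 0.21 without knockout 2. The difference between those 2 receptors was not tested. Anxa2 and S100a10, which together form a surface site for plasminogen and its tissue activator, differed by -0.01 (-0.30 to 0.29) and -0.17 (-0.60 to 0.27), the latter -0.44 without wild-type 3 and knockout 3, and the clearance receptor gene Lrp1 by -0.10 (-0.35 to 0.15). Entpd1, whose product degrades platelet-activating ADP, measured 8.23, 7.53 and 6.94 against 7.53, 7.21, 8.41 and 7.49, highest on knockout 3, and differed by 0.09 (-0.78 to 0.97). Dropping wild-type 1 gave 0.42, dropping wild-type 3 gave -0.22, and leaving out both wild-type 3 and knockout 3 gave -0.47. Adjusted p was 0.971 or higher in limma for all 30.

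**Figure D4:**
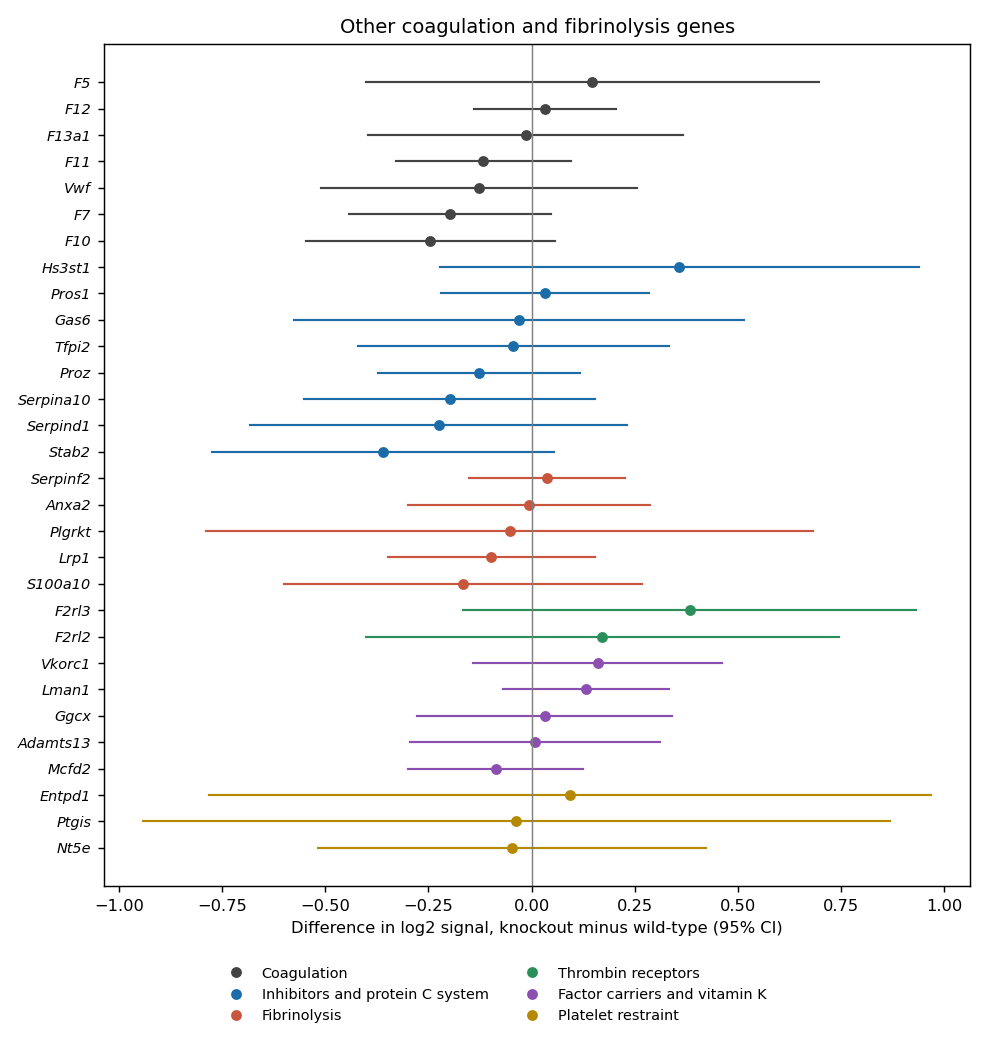
Difference in log2 signal, knockout minus wild-type, with 95% confidence intervals (horizontal axis) for the 30 other coagulation and fibrinolysis genes tested, coloured by role. Every interval includes 0, and the differences run from -0.36 for Stab2 to 0.38 for F2rl3.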

How the data were processed

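The authors deposited 1 log2 value per probe set and array (41345 probe sets, 7 arrays), made with RMA in Affymetrix Expression Console 1.1 per the submitters' processing notes. That the deposited values are log2 was read from the values, and the build behind the array annotation is not given in the sources used here. RNA was amplified and labelled with a whole-transcriptome kit for small inputs, per the labels. No reads stand behind array values, so the number of arrays limits precision.

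Probe sets were named through GEO's platform annotation: 23521 had 1 symbol, 1814 several and 16010 none listed. Symbols were updated through RefSeq GRCm38.p6. Per gene the probe set with the highest mean was kept, and the dimmest 25% of 22180 genes were left out. Labels were compared with limma 3.58.1 (R 4.3.3; lmFit, eBayes, two-sided), and p-values adjusted over 16637 genes at a threshold of 0.05. The fit was tested on simulated data. Named genes were the 9 members, a fixed set of pathway genes, Sash1 and Pecam1, the 3 genes most alike each varying member, and markers a result turns on. Stab2, Gas6 and Ptgis were named after their values were seen. Members, lists and the 2 doubted arrays were chosen with earlier results of these data known. Alternatives covered filtering, scaling, variance model, array weights, probe set averaging, replicate block, threshold and left-out arrays.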

Additional observations from a re-analysis of the deposited data

Results flagged for a closer look

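Tfpi on array knockout 3, at 6.88, lay away from knockout 1, 2 and 4, at 7.02 to 7.04, although wild-type 1 was as low, at 6.87. Among 4 arrays chance marks about 1 in 20 genes in this way, and 1 of the 9 genes was marked.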

How the results depend on the processing

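In limma 0 of 9 members, 0 of the other pathway genes and 0 of all genes passed under each alternative run, a threshold of 0.1 with all arrays kept included, and over the refits 225 to 1779 genes had an unadjusted p under 0.05. Of 162 recomputed member differences 150 kept their sign and 12 turned. Changes to the filter, the variance model and probe set averaging left each member's difference as it was, so those settings could not turn a sign. The fixed replicate block gave the same differences as leaving out knockout 4. The count of 150 therefore overstates how stable the signs were. Tfpi was 0.028 with median centring and 0.012 without wild-type 3 and knockout 3, and F8 was -0.014 with array weights, where Plaur had an unadjusted p of 0.0445. With 1 array left out, differences ranged from -0.28 to 0.017 for Thbd, -0.11 to 0.04 for Tfpi, -0.038 to 0.29 for F8, -1.13 to 0.025 for Plat, -0.68 to 0.27 for Plau and -0.40 to 0.11 for F2r, while F3 (-1.54 to -0.17), Plaur (-1.24 to -0.33) and Procr (-0.65 to -0.15) stayed below 0; the cause was not tested. Replicate numbers share no stated source, so samples were not paired by number in the main fit. Deviations of same-numbered arrays correlated at -0.18, -0.20 and -0.55 across genes, the last between wild-type 3 and knockout 3. Those of differently numbered wild-type and knockout arrays correlated at -0.18 to 0.49, the highest between wild-type 1 and knockout 3. These correlations cannot exclude a shared source. With the replicate block as a fixed term, in which knockout 4 drops out of the contrast, Plaur differed by -0.64 and F3 by -0.47, with 0 genes called and 225 at an unadjusted p under 0.05, and as a random effect by -0.66 and -0.71, with 0 called and 367. Over all genes the median half-width of the 95% interval was 0.345 log2 units.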

Other observations

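Exact ties between arrays were common in the deposited values, which have 2 decimals: any pair of the 7 arrays held the same value in 7.64% to 11.3% of the 41345 probe sets. Pros1 read 8.01 on 5 of 7 arrays, and 830 of the 16637 tested genes (4.99%) had a value shared by at least 5 arrays, among them 0 of the 9 genes of coagulation control.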
